A study of Mus musculus with 2 samples.

Results

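Stretches of transcribed sequence that lie just beyond the annotated 3′ ends of genes were described in the embryonic mouse nervous system. The deposited table of contigs, which are genomic stretches that hold reads of 1 strand, lists 924405 contigs on mm9. Members were the contigs of at least 200 nt that overlapped no gene of the Ensembl release 65 gene table on either strand and began within 10 kb (10000 nt) downstream of the 3′ end of a gene on the same strand. The rule found 40215 members, among 702418 contigs of at least 200 nt and 172503 of that length on no gene. The nearest such gene is called the host, and 11536 of the 37310 genes (30.9%) were hosts. The working name of these regions is longer 3′ untranslated regions (UTRs). A later annotation placed few of them in a longer last exon of the host. The rule leaves out contigs that run across a gene end, and absence from that annotation does not show what a member is. The regions are therefore called contigs downstream of gene ends.

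Both libraries came from central nervous system tissue of C57BL/6J embryos at embryonic day 14, and each was made from male and female littermates pooled together. The labels give 1 group with 2 biological replicates, name no treatment and no altered allele, and list the same donor identifier for both. Each replicate is 1 library, so differences of tissue pool, preparation and sequencing cannot be told apart. RNA longer than 200 nt was depleted of ribosomal RNA, selected for poly(A) tails and sequenced as stranded paired-end libraries. Neuronal markers and genes of radial glia, the progenitors of the nervous system, were at 1 TPM (a transcript abundance scaled to the library) or more in both replicates for 20 of 20 listed genes each, and markers of muscle, skin, cartilage and red blood cells were also detected. Genes took 99528934 expected counts in replicate 1 and 134760822 in replicate 2. The contig table pools the libraries, so each contig has 1 value and no error, and contigs were not treated as replicates or tested.

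The 3′ end of a messenger RNA is made by cleavage and the addition of a poly(A) tail, usually shortly after a signal hexamer, AATAAA or its variant ATTAAA in DNA letters. A gene can have several such sites, and neurons are known for using the distal ones, which gives their messages long 3′ UTRs. The 3′ UTR holds sites for microRNAs and RNA-binding proteins that set the stability, translation and place of a message. RNA polymerase also continues past the cleavage site before it leaves the template, so RNA downstream of a gene end can also be unprocessed or belong to another transcript.

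The sequences that bear most directly on a longer 3′ UTR are those at its far end. For 168 hosts, members lay in sequence that the later annotation GENCODE M21 (mm10) includes in the last exon of the same gene, and the M21 transcript gives the letters at both ends. The last 30 bases before the Ensembl 65 end and before the M21 end, 5′ to 3′ on the strand of the gene, are shown for 5 hosts in which a member with a coverage of at least 10 stopped within 50 nt of the M21 end, chosen after their values were seen; capitals mark AATAAA or ATTAAA.
Ebpl, Ensembl 65 end: ttcccgccgccatgaagtaaatagctttac
Ebpl, M21 end: aaagtccATTAAAatttaatttgcctctca
Naa16, Ensembl 65 end: gtccagccagggatacgtgttgagacactg
Naa16, M21 end: atattatactAATAAAaggagaagtccatc
Acer3, Ensembl 65 end: ttctagggtctcataaaacatacaagaagc
Acer3, M21 end: tcttatacgggAATAAAgccaaagagttcc
Zfp738, Ensembl 65 end: taattATTAAAtcttgtatggacctttcaa
Zfp738, M21 end: taaagaaaatatccaatAATAAAaaatttt
Trim71, Ensembl 65 end: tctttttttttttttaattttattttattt
Trim71, M21 end: tcaAATAAAcagagggttgtcccatgaaaa

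Of these, Zfp738 alone had a hexamer within the last 40 nt before its older end, and all 5 had one before the later end. Over all 168 hosts, AATAAA stood in the last 40 nt of the sense strand at 63 older ends (37.5%) and 81 M21 ends (48.2%), and either hexamer at 82 (48.8%) and 110 (65.5%). The same windows at the ends of the 21312 M21 transcripts used for this comparison held AATAAA in 54.7% and either hexamer in 67.4%. In the 71 hosts with a member that stopped within 100 nt of the M21 end, AATAAA was found at 24 older ends (33.8%) and 40 later ends (56.3%). A match is a run of letters and not a measured cleavage site.

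Trim71, a ubiquitin ligase of stem cells and neural progenitors, is a classical target of the microRNA let-7. Its deposited contigs covered 2 matches to the let-7 seed that the Ensembl 65 gene lacks. The mature let-7a sequence (RefSeq, GRCm38.p6) is shown with its seed, bases 2 to 8, in capitals, and the 2 stretches of the M21 transcript with the complement of the seed in capitals.
mmu-let-7a-5p: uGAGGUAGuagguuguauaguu
Trim71, 2221 nt beyond the Ensembl 65 end: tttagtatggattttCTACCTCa
Trim71, 2247 nt beyond the Ensembl 65 end: ttggcaaaaagttgtCTACCTCa

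Both lay within a member of 3390 nt. Seed matches were fewer per kb in the added sequence than before the older end for all 4 microRNAs counted, which was not tested. The part before the older end is the whole last exon up to it, and it can include coding sequence. Over the 166 hosts whose added part was at most 20000 nt, let-7 matches (CTACCTC) numbered 26 in the added parts, 0.0578 per kb, and 21 in the same last exons before the older end, 0.0993 per kb. For miR-9 (ACCAAAG) the values were 0.116 and 0.128 per kb, for miR-125b (CTCAGGG) 0.109 and 0.151, and for miR-128 (CACTGTG) 0.138 and 0.208. The median GC content was 43.1% in the added parts and 46.8% before the older end.

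Most members were short and thinly covered. Coverage here is the deposited summed base coverage divided by the contig's length, that is the mean number of reads over a base in both libraries together, as far as the values of this table without a header show. The middle 50% of lengths ran from 289 to 693 nt with a median of 418 nt, and the longest member had 36183 nt. The median coverage was 3.01 (quartiles 2.07 and 4.56), with a lowest value of 0.926, and 79.2% of members had less than 5. Coverage reached 10 in 2093 members (5.20%), beside 1573 hosts. Together the members spanned 26.9 Mb and took 0.533% of the summed coverage of all contigs, or 0.372% without the 10 members of highest summed coverage.

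The deposited reproducibility score has no header, and from its values lower was taken to mean closer agreement of the libraries. It was at most 0.1 for 23262 members (57.8%). It was that low in 5.99% of members with a coverage under 2 and in 63.6% of those from 2 to 5. From 5 to 10 it was so in 99.7%. Named members of nearly equal summed coverage had equal scores. Those of Ubb and C1qb, at 604 and 605, had 0.17, and those of Bdnf and Rpl7, at 1008 and 1010, had 0.11. The link of score and coverage is therefore not separate evidence that the libraries agree. The threshold of 200 nt cut through the distribution, since 1374 members were less than 10 nt above it, with a median coverage of 2.02. So did the limit of 10 kb, where 1210 members in the last 500 nt inside it had a median coverage of 2.89 and 1138 contigs in the next 500 nt outside it 2.91.

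Members crowded toward gene ends on the strand of the gene. They numbered 6588 per kb of distance in the first 500 nt, 6144 from 500 to 1000 nt, 5555 from 1000 to 2000 nt, 4435 from 2000 to 5000 nt and 2998 from 5000 to 10000 nt. Much of the fall with distance was also present in the 21851 members with no same-strand gene start and no opposite-strand gene within 10 kb. They numbered 3306 per kb in the nearest window and 1739 in the farthest. A second same-strand gene end within 10 kb on the side of the host was not excluded. Contigs downstream of a gene on the opposite strand, filtered likewise for neighbouring genes, are the background at the same distances. They numbered 828 and 626 per kb (6831 in all). The plot of contigs by distance shows both strands.

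**Figure D1:**
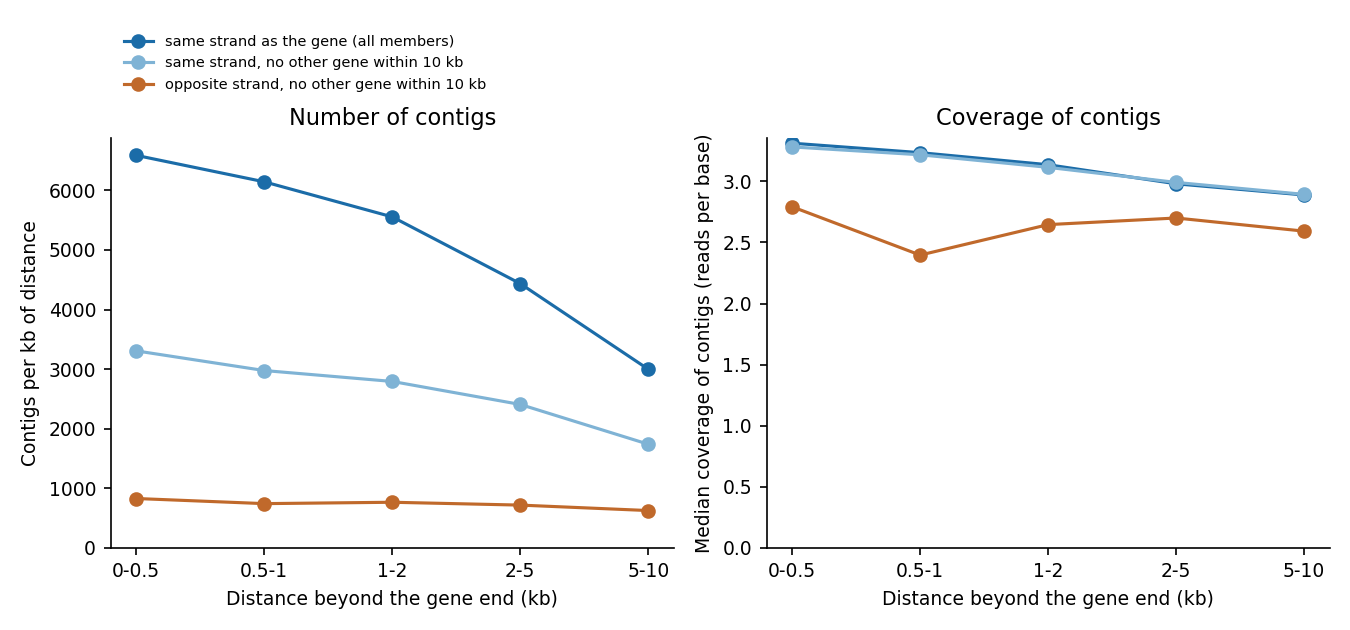
Number of contigs per kb of distance (left) and their median coverage in reads per base (right) in 5 windows of distance beyond gene ends. Values are given for all members, for filtered members and for filtered contigs on the opposite strand. Filtered members had no same-strand gene start and no opposite-strand gene within 10 kb. Another same-strand gene end on the side of the host was not excluded. The contigs on the opposite strand were filtered likewise for neighbouring genes. All members fall from 6588 to 2998 per kb and the filtered members from 3306 to 1739, whereas the filtered opposite strand stays between 626 and 828. Median coverage changes little on either strand.

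Coverage changed far less with distance than number did. The median was 3.31 in the first 500 nt and 2.89 beyond 5000 nt, and members of coverage 10 or more made up 7.29% and 4.79%. Contigs elsewhere off genes were similar: the median was 2.63 on the opposite strand downstream, 2.86 upstream of same-strand gene starts (8879 contigs) and 2.74 in the 93363 contigs over 10 kb from any gene. Their lengths were slightly shorter, with medians of 350, 367 and 369 nt against 422 nt for the same 21851 members as above. A coverage of 10 or more was reached by 5.07% of those members, 4.57%, 6.84% and 5.25% of these classes in the same order.

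The level of the host said little about the coverage of its members. Genes listed at 0 RPKM, which is reads scaled by gene length and library size, were hosts in 7.92% of cases, genes up to 0.1 RPKM in 23.5%, genes from 1 to 10 RPKM in 56.4% and genes above 100 RPKM in 35.6%. The median coverage of members nevertheless stayed between 2.79 and 3.24 in the 5 lower classes of host level and was 4.04 for the 93 members beside hosts above 100 RPKM. Across the 37824 members of hosts above 0, log2 coverage and log2 RPKM had a Pearson r of 0.06 and a Spearman rho of 0.08. These contigs share 2 libraries and 1 depth, and members of 1 host share its level.

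Seen against the end of the host, most members were minor. The coverage of a member was divided by that of the last 500 nt of the host's last exon, or of the whole exon where shorter. Each contig on that window counted with its mean over its whole length, including any part past the gene end. The shares are therefore not relative to the reads of the window alone. The ratio could be formed for 37539 members, and for the other 2676 the host's end carried no contig. The median was 2.49% of the host's end, with quartiles of 1.01% and 9.81%. Of the rated members 9279 reached 10% of the end and 2269 matched or exceeded it. The latter sat beside low hosts, with a median of 0.0131 RPKM against 5.79 RPKM for the members under 1%. The host's end is the divisor and member coverage hardly followed host level, so this contrast follows largely from the ratio itself. The plot of members against host ends shows that coverage hardly followed that of the host.

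**Figure D2:**
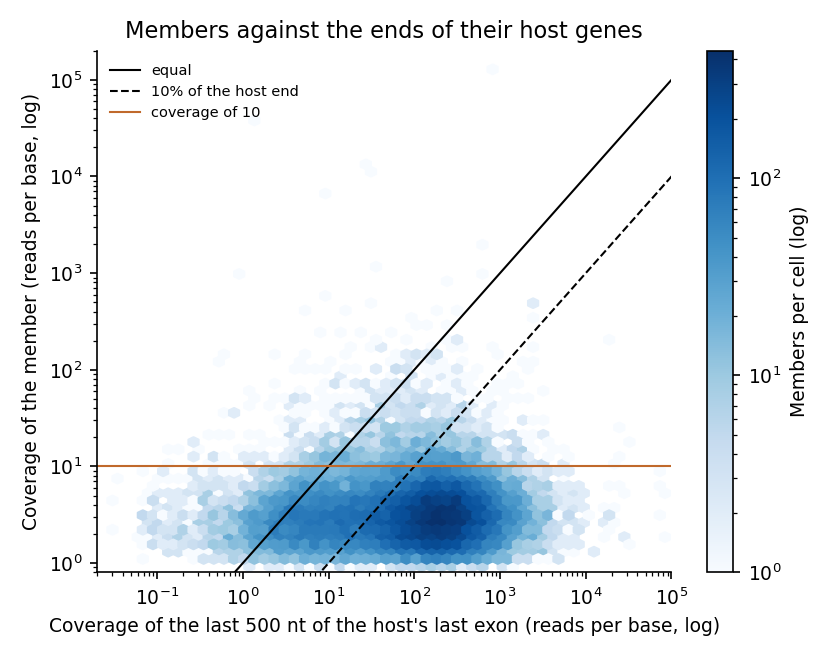
Coverage of each of 37539 members against that of the last 500 nt of its host's last exon, both in reads per base on log axes. The host value averages the contigs on that window, each with its mean over its whole length. Colour gives the number of members in a cell. The solid line marks equal coverage, the dashed line 10% of the host end and the orange line a coverage of 10, which 2093 of all members reach.

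Contigs that run across a gene end overlap the gene and are not members, and they were common. A contig covered the last base of 18673 genes. Of the 11099 genes of at least 1 RPKM, 7392 (66.6%) had a contig that ran at least 200 nt past the end and 4655 (41.9%) one that ran at least 1000 nt past it. The median overrun was 779 nt. Of the hosts, 9184 (79.6%) had a contig on the last base, with an overrun of any length or none. That is a share of hosts and not of members. A member was called joined where gaps of at most 200 nt led back to the gene end or to the crossing contig. There were 10328 joined members (25.7%) in 5407 hosts, and their share fell from 74.6% in the first 500 nt to 10.9% beyond 5000 nt. The joined stretch reached 2397 nt at the median, at least 5000 nt in 1244 hosts and at least 10000 nt in 322.

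The members nearest to what a longer 3′ UTR would look like formed a small group. Joined members with a coverage of at least 10, at least 10% of the host's end and no other same-strand gene start within 10 kb numbered 588, in 443 hosts, of which 301 are protein-coding in M21. This group was formed after the data had been seen. Its median length was 1944 nt, its median coverage 18.5 and its median share of the host's end 40.9%, and 84 of its members had 5000 nt or more. An assembled gene model covered both host and member for 308 (52.4%), and a spliced read led from the host to the member for 103 (17.5%). Of those whose host could be followed to M21, 330 (84.2%) lay on no gene of that strand there and 25 in a longer last exon of the host.

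The longest member was downstream of Elavl2, a neuronal RNA-binding protein gene on chromosome 4. It spanned chr4:90875660-90911842 (mm9, minus strand), 36183 nt, at a coverage of 90.4, which is 31.3% of the host's end. It began 5612 nt beyond the gene end, where the contig that crosses the end had run for 5537 nt, and it lay on no M21 gene of that strand. A junction with 3 reads linked it to the gene. Elavl2 itself had 61.5 TPM in replicate 1 and 74.3 in replicate 2, a log2 ratio of 0.29.

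Src, a tyrosine kinase gene that is spliced differently in neurons, had a member of the same kind. It spanned chr2:157299929-157311561 (mm9, plus strand), 11633 nt at a coverage of 95.3, or 38.9% of the host's end, and began 2331 nt beyond the gene end after a crossing contig of 2302 nt. A junction with 4 reads led to it, and M21 had no gene on that strand there. The host had 56.85 and 59.73 TPM in replicates 1 and 2. Other hosts of the joined and well covered group with long members were Slc4a1ap (12924 nt at 75.4, 71.8% of the host's end), Igsf3 (10999 nt at 40.1, 11.8%), Tbck (10722 nt at 70.4, 77.8%, mostly past the 3182 nt that M21 adds), Aasdhppt (10696 nt at 48.1, 23.3%) and Parpbp (9637 nt at 39.2, 77.8%). Their hosts had 17.2 and 17.4 TPM, 17.5 and 14.7, 5.66 and 5.99, 8.62 and 9.28, and 3.12 and 3.73 in replicates 1 and 2, so that the larger value exceeded the smaller by less than 2-fold in each.

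Other very long members had varied relations to their hosts. Behind Elavl2, the longest were a member of 34438 nt at a coverage of 125 downstream of Zfp619 and one of 26001 nt at 203 downstream of Xkr6. They had 234% and 602% of the coverage of their hosts' ends, lay 7532 and 4701 nt before the start of another same-strand gene, and the former lay in an intron of the M21 long noncoding RNA gene Gm37494. Both were joined to the gene end and shared an assembled gene model with the host, whereas the Elavl2 and Src members were joined but shared none. The member of 18270 nt beside Gm3985 lay in an intron of Nrg1, which encodes a neuregulin. A member of 13617 nt beside Igsf9b, at 176 and 426% of the host's end, lay in another exon of that gene in M21. A junction with 5 reads linked it to the host. Stox2 (16087 nt at 14.9) and Bhlhb9 (19642 nt at 15.8) had long members at 5.06% and 1.89% of strongly covered ends. Zfp935, Zfp41, Gm10160 and a gene without a symbol, ENSMUSG00000091095, completed the 10 longest, with 13957 to 18039 nt.

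The 10 members of highest summed coverage ranged in length from 227 to 36183 nt. A contig of 227 nt lay 7289 nt beyond Tra2a, a splicing factor gene, with a coverage of 128493, which is 16114% of the host's end. One of 583 nt beside Gm15569 had 38771, one of 322 nt beside Rimbp3 13958, one of 1778 nt beside Gm24598 10857, and one of 555 nt beside Gm22519 6264. Gm22019 and ENSMUSG00000067833 followed, with 2761 over 1784 nt and 2008 over 2819 nt, both near another same-strand gene start. None of these 7 had a spliced read to its host, and the 10 members of highest summed coverage, which also include those of Elavl2, Zfp619 and Xkr6, held 30.1% of the summed coverage of all members.

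The maps of contigs beyond gene ends show the members in which the later annotation and the data met. Kcna2, the gene of a voltage-gated potassium channel, had a member at chr3:106910027-106918026 (mm9, plus strand), 8000 nt at a coverage of 68.5, which is 240.0% of the older end. It ended 8229 nt beyond that end, and the M21 last exon is longer by 8126 nt. In Ebpl, a gene related to a sterol isomerase, a crossing contig of 3400 nt was followed by a member of 4607 nt at 25.7 that stopped at 8021 nt, exactly where the M21 exon ends. Naa16, an auxiliary subunit of an N-terminal acetyltransferase, had 2 members in a row at 26.9 and 47.7, the latter ending at 8940 nt for an M21 end at 8935 nt. Zfp738, a zinc finger gene, had 7545 nt at 115, ending at 8733 nt for 8752 nt, and after it a member at only 8.84.

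Fbxo32, a ubiquitin ligase subunit known from muscle wasting, had members at 43.5 and 65.9, which are 106% and 161% of the older end, and the second stopped at the M21 end, 4200 nt. Acer3, an alkaline ceramidase, had members at 20.2 and 30.9 that ran to 7286 nt for an M21 end at 7269 nt; the second also lay near another same-strand gene start. Inhba, a subunit of activin A and like Acer3 chosen after its values were seen, had a member at 22.4 that stopped at 4402 nt for 4410 nt. In Trim71, a member at 10.5 ended at 4093 nt for 4142 nt and had 340% of the coverage at the older end. Grin2a, a glutamate receptor subunit of the more mature brain, had no contig on its older end at all, and its 3 members of 6.50, 7.95 and 42.9 rose towards the last base, at 9822 nt for 9812 nt.

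**Figure D3:**
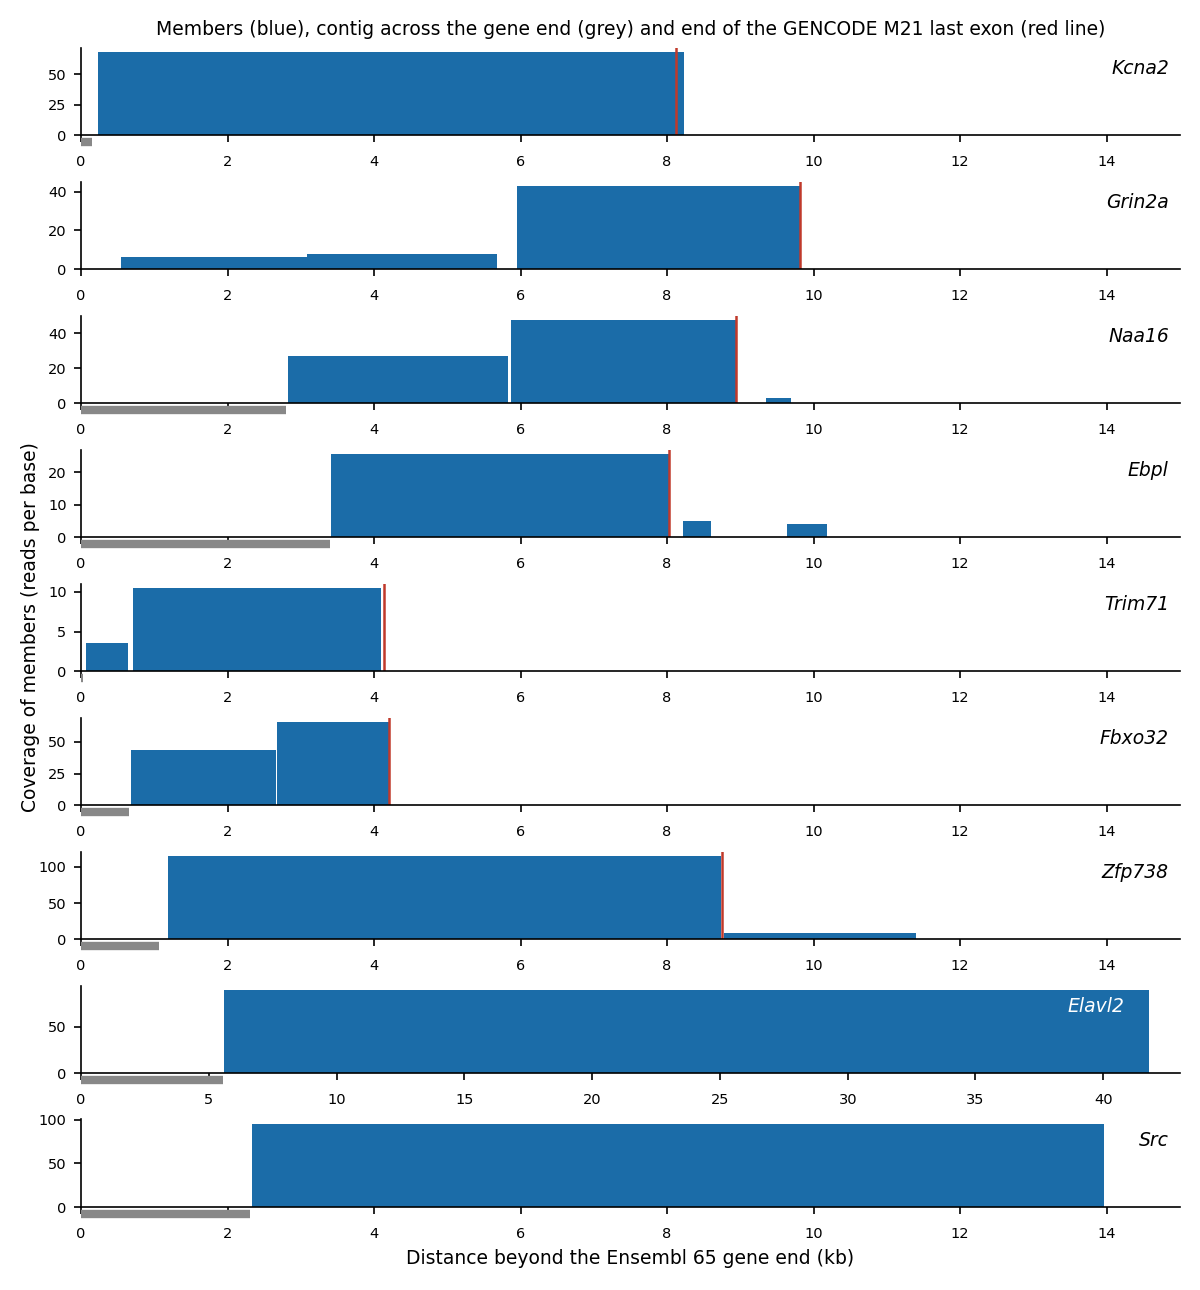
Coverage in reads per base (vertical) of the members of 9 hosts by distance in kb beyond the Ensembl 65 gene end (horizontal), with the contig that crosses the gene end in grey and the end of the M21 last exon as a red line. In 7 hosts the member of highest coverage stops within 103 nt of the red line, and for Elavl2 and Src, whose members run to 41794 and 13963 nt, M21 adds nothing; the Elavl2 axis is longer than the others. The hosts were chosen after their values were seen.

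The hosts of both paragraphs ranged widely in level, and most had similar values in the replicates. Naa16 had 8.52 and 8.94 TPM in replicates 1 and 2, Ebpl 10.97 and 10.13, Zfp738 6.66 and 7.14, and Acer3 9.30 and 6.91. Fbxo32 had 1.82 and 2.14 TPM, Grin2a 0.680 and 0.660, and Trim71 0.260 and 0.140. Kcna2 had 1.44 and 0.870 TPM and Inhba 1.51 and 0.560, both higher in replicate 1. These TPM values rest on GENCODE M4, which may lack the added sequence: the Kcna2 transcript had 3456 nt there and 11582 nt in M21, while that of Trim71 had 9332 nt in both. Of the 127 extended transcripts that M4 lists, 78 lacked at least 90% of the added length there and 45 lacked at most 10%.

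Over all members, few were in a longer last exon of the later annotation. Distances were counted from the last intron that a host's transcript shares in both annotations, so no coordinate was carried between builds. This was possible for 31748 members in 8835 hosts. As a check, 1187 of 1189 pairs of neighbouring gene ends were equally far apart in both. Of these members 269 (0.847%), in 168 hosts, lay mostly in a longer last exon of the host and 45 in another exon of it. Another 600 lay in introns of the host, 246 in exons and 637 in introns of another gene, and 29951 (94.3%) on no gene of that strand. With a coverage of at least 10 the corresponding counts were 40 in a longer last exon and 1188 on no gene, of 1413.

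Members in a longer last exon lie mostly within the added length by definition, so their distance is given as a description. They began 943 nt beyond the older end at the median, against 3663 nt for members on no M21 gene, 58.7% of them were joined against 26.8%, and their median share of the host's end was 15.9% against 2.02%. Their hosts were lower, with a median of 0.159 RPKM for these members against 2.05 RPKM. The far edge fell within 50 nt of the M21 end in 57 members (21.2%) and within 100 nt in 71. It stopped more than 100 nt short of it in 173 and ran more than 100 nt past it in 25. The added part had a median of 2080.5 nt over the 168 hosts and ranged from 215 nt to 119670 nt in D10Wsu102e, where the M21 exon is unusually long.

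**Figure D4:**
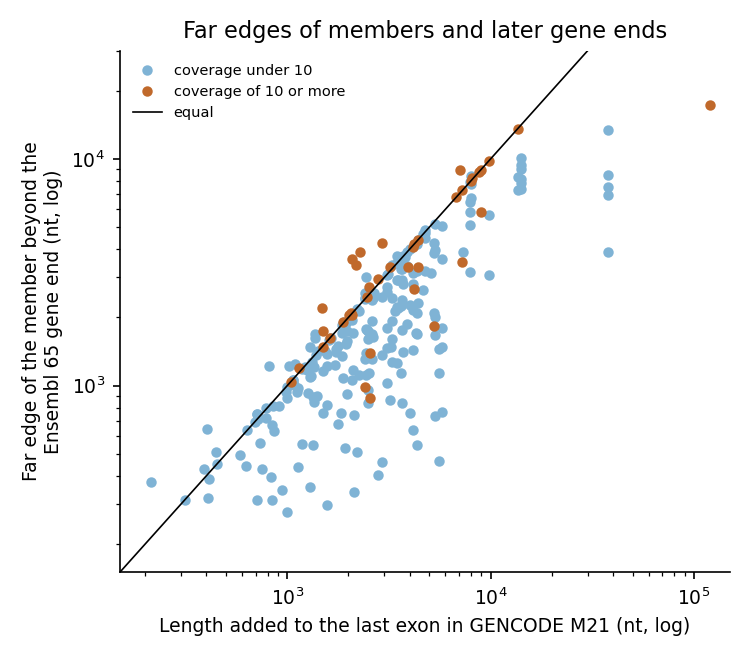
Far edge of each of the 269 members in a longer last exon, in nt beyond the Ensembl 65 gene end, against the length that M21 adds to that exon, both on log axes, with members of coverage 10 or more in orange. Points on the line stop where the M21 exon stops; 57 lie within 50 nt of it, 173 lie more than 100 nt below it and 25 more than 100 nt above it.

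Last exons that were lengthened in M21 were found in hosts and in other genes. Among genes in both annotations, the longest last exon was at least 200 nt longer in M21 for 14.7% of all 32458 genes. It was so for 2021 of 10690 hosts (18.9%) and 2758 of 21768 other genes (12.7%). Among genes of at least 1 RPKM the shares were 20.5% of hosts and 17.9% of others. Counting only an exon that covers the older end, they were 8.26% of 5448 hosts and 8.19% of 3956 others at that level. Where such genes were lengthened, the added part was mostly within a crossing contig and so outside the set: in 668 of 774 (86.3%) that contig covered at least 90% of it, and 42 had members there.

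Links inside the deposited data tied a minority of members to their hosts. Of all members, 5854 (14.6%) shared an assembled gene model with the host, 2528 (6.29%) an exon of the same assembled transcript, and 1190 (2.96%) a splice junction from the host with at least 1 read. The corresponding numbers with a coverage of at least 10 were 742 (35.5%), 473 (22.6%) and 303 (14.5%). At least 5 junction reads were found for 124 members. The most were 156 for a member 7231 nt beyond Gm11508, 146 for one beyond Gprasp2, which lies in an intron of another M21 gene, 131 for one beyond 6820431F20Rik, 121 for one beyond Cr1l in an intron of the M21 gene, and 84 for one of 9966 nt at a coverage of 77.6 beyond Ksr2, a scaffold of the Ras pathway. A junction shows that a spliced read joins host and member, and by itself it does not show whether the member continues the last exon; the Ebpl member, in the longer M21 exon, also had 1 junction read. These hosts were chosen for their junction reads after the values were seen.

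Lists of neural genes held hosts in shares from 65% to 76%, and the list of 3′ end processing genes in 45%. Among all genes of at least 1 RPKM, 55.1% were hosts, 7.74% were hosts of a member of coverage 10 or more and 41.9% were crossed by a contig that ran at least 1000 nt past the end. Counts for lists of 10 to 33 genes are read against these shares and were not tested. Axon guidance and adhesion genes had 19 hosts of 25, 6 of them with a coverage of 10 or more, neural transcription factors 22 of 29 with 5, RNA-binding and microRNA pathway genes 24 of 33 with 4, and neuronal markers 14 of 20 with 4. Genes of radial glia and progenitors had 13 of 20 with 1, cell cycle genes 11 of 20 with 2, and signalling kinases and phosphatases 12 of 20 with 3. The long crossing contigs were found in 21 of 33 RNA-binding genes and in 18 of 20 ribosomal protein genes, where 10 were hosts and none had a member of coverage 10 or more.

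The leading adhesion and guidance hosts were Nlgn1, a postsynaptic neuroligin, Cdh2 (N-cadherin), Nrcam and Plxna4. The Nlgn1 member of 9120 nt had a coverage of 21.1 and 8.76% of the host's end, and it reached past the M21 exon, which adds 5596 nt. Cdh2 had 3969 nt at 21.6, Nrcam 6718 nt at 8.48 behind 909 nt at 19.3, and Plxna4 2427 nt at 8.52. Among transcription factors, Tbr1, which specifies deep-layer cortical neurons, had 8681 nt at 18.7 (3.86% of the end), Sox11 8559 nt at 12.5 (0.329%), Nfib 6780 nt at 15.04 (4.95%) and the midbrain gene En2 1470 nt at 4.70, which is 120% of a thinly covered end. Among RNA-binding proteins, the splicing regulators Nova1 and Rbfox2 had members of 5725 nt at 19.3 (3.40%) and 3802 nt at 14.4 (1.79%), and Ago4, a microRNA effector, 1969 nt at 6.76 (3.02%). All of these except En2 stood well below the ends of their hosts, and the Ago4 member also lay near another same-strand gene start.

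Neuronal markers showed long, thin stretches. The longest members of Stmn2, Dcx, Gap43 and Snap25, which serve the cytoskeleton, growth cones and vesicle release, had 4249 nt at 14.6, 2831 nt at 5.47, 2681 nt at 6.08 and 1549 nt at 6.51, between 0.207% and 1.58% of the ends. Progenitor genes followed with Zic1 (1905 nt at 11.3), Nes (1559 nt at 4.24), Fabp7 (885 nt at 3.46) and Ptprz1 (765 nt at 3.68), all at or under 1.66%, and the Fabp7 member lay near another gene start. In the cell cycle list, Tyms, the thymidylate synthase gene, had 5225 nt at 77.2, which is 136% of its end, in 5 members of at least 10, and Cdk1 had 1826 nt at 27.0 that ran to 2201 nt, where M21 adds 1489 nt. Mcm3 had 1439 nt at 4.16 and Aurkb, near another gene start, 2015 nt at 7.70. Mapk10 and Mapk8, which act in stress signalling, had 2806 nt at 7.70 and 1958 nt at 8.32, the latter near another same-strand gene start.

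The machinery that makes 3′ ends had members of its own, few of them strong. Of 20 cleavage and polyadenylation genes, 9 were hosts. Nudt21, the subunit of cleavage factor I that recognises UGUA and steers the choice of site, had 417 nt at 424, which lay in its M21 last exon and had 259% of the older end, and 2007 nt at 146 that began within that exon and ran past its end, both near another gene start. Rbbp6 had 2593 nt at 13.9 (4.201%) and the poly(A) polymerase gene Papola 2356 nt at 5.71 (1.37%). The longest members of Cstf1, Clp1, Cpsf2, Papolg, Cpsf3 and Pcf11 had 1056, 810, 738, 691, 441 and 398 nt, at coverages from 2.69 to 5.54; that of Clp1 came to 92.7% of a thin end and the others to at most 2.22%. Of these, the members of Cstf1, Clp1, Cpsf3 and Pcf11, like that of Rbbp6, lay within 10 kb of another same-strand gene start.

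Genes known for long 3′ UTRs in brain were often hosts, with thin members. Of 14 listed, 11 were hosts, 3 of them with a coverage of at least 10. Cdc42 had 2007 nt at 4.83 and 1833 nt at 10.7, Map1b 1947 nt at 10.5 and Kpnb1 994 nt at 4.03 and 235 nt at 16.8. Impa1, Elavl1, App, Bdnf and Mapt had 836, 712, 490, 381 and 293 nt, at 8.63, 7.53, 3.64, 2.65 and 5.29. Apart from Bdnf (8.38%), Impa1 (5.62%), Elavl1 (2.92%) and the short Kpnb1 member (2.16%), the members named here stood under 1% of the host's end. The members of Map1b, Kpnb1, Impa1 and Elavl1 lay near another same-strand gene start. Contigs across the gene end, which are outside the set, also held sequence past some of these ends, and they ran 8038 nt past the end of Impa1, 6039 nt past Elavl1, 4651 nt past App and 4528 nt past Kpnb1.

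Hosts of very high RPKM had members far below their ends. The ubiquitin gene Ubb, the tubulins Tuba1a, Tubb2b and Tuba1b and the actin gene Actb ranged from 375 to 1661 RPKM. The best covered members of Tubb2b, 25.9 over 4240 nt, and of Actb, 10.97 over 4401 nt near another gene start, came to 0.101% and 0.0496% of the coverage of the host's end, and the longest of Ubb to 0.0315%. Reads of these genes can be shared with near-identical copies.

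Most host genes varied little between the libraries, and those that did were mostly lower in replicate 2. Of the hosts, 10775 were in the mm10 tables; 8120 reached 1 TPM in replicate 1, 7985 in replicate 2 and 7932 in both, and the medians were 10.95 and 10.44 TPM. Ratios were taken from TMM-normalised expected counts where the 2 expected counts averaged 200 or more. Of all 14340 such genes 3.95% were at least 2-fold lower in replicate 2 and 0.286% at least 2-fold higher; of the 7754 hosts, 225 (2.90%) were lower and 18 (0.232%) higher. The median absolute log2 ratio of hosts was 0.14. For the 1019 hosts of a member of coverage 10 or more, 14 were lower and 3 higher. With 1 library for each replicate these are differences between libraries, with no p-value. In tissue, fewer cells of a type and less RNA per cell cannot be told apart.

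Among the hosts that were lower in replicate 2 were genes of other tissues: 3 of 3 tested hosts of the muscle list, 1 of 1 of the epithelial list and 3 of 4 of the cartilage list, of 225 in all. The muscle gene Ckm had 16.4 and 0.0600 TPM in replicates 1 and 2, Mylpf 163 and 2.87, Myog 21.3 and 0.480, and the cartilage gene Matn1 177 and 7.34. Their members were weak, with coverages of 4.41, 3.09 and 1.11 for the muscle genes and at most 6.03 for Matn1. Beside them, 11 of 11 skeletal muscle genes tested were at least 2-fold lower in replicate 2 (summed level 657 and 15.6 TPM), 10 of 10 of skin and other epithelia (160 and 22 TPM) and 9 of 10 of cartilage and bone (878 and 137 TPM), and no listed gene of these was at 0. Neuronal markers had 0 of 20 apart, with 8131 and 8196 TPM in sum. Of the 18 hosts higher in replicate 2, Hoxb9, a posterior homeobox gene, had the largest ratio, with 0.360 and 13.06 TPM (log2 ratio 5.20) and members of at most 3.97, followed by Gm43517 (log2 ratio 1.54) and 9130024F11Rik (1.24). The list of neural transcription factors held 4 of the 18. Higher were also the forebrain factors Tbr1 (29.7 and 60.6 TPM), Nkx2-1 (20.4 and 43.4) and Emx1 (26.15 and 57.95), whose members reached 18.7, 38.7 and 29.5, and the Nkx2-1 members, 13754 and 6007 nt, lay in an intron of Sfta3-ps in M21.

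Among 93 hosts with a member in a longer M21 last exon, 11 (11.8%) were at least 2-fold lower in replicate 2 and 0 higher, beside 3.95% and 0.286% of all genes and 2.90% and 0.232% of hosts. They were Ckm, Mapk13, Ap1m2, Mme, Tbx20, 4930523C07Rik, Mkx, Cdh3, Cdk18, Socs1 and Slco2a1, from 16.4 and 0.0600 TPM in Ckm to 1.99 and 0.930 TPM in Slco2a1. Ap1m2 (3.08 and 0.790 TPM) and Cdh3 (6.88 and 2.99 TPM) are epithelial genes, and Mkx (3.01 and 1.72 TPM, log2 ratio of the counts -1.22) is a tendon factor. The muscle, epithelial and cartilage lists fell in the same library, and their part in this share was not tested. With log2(TPM + 1), a scale that shrinks the ratios of weakly expressed genes, 4 of the 93 (4.30%) were that much lower, beside 2.65% of all genes. With log2(TPM + 0.01) the shares were 9.68% and 3.93%. At a mean count of at least 50 they were 15.3% of 118 such hosts and 5.47% of all genes. Without a filter they were 17.3% of 168 such hosts and 7.51% of all genes.

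**Figure D5:**
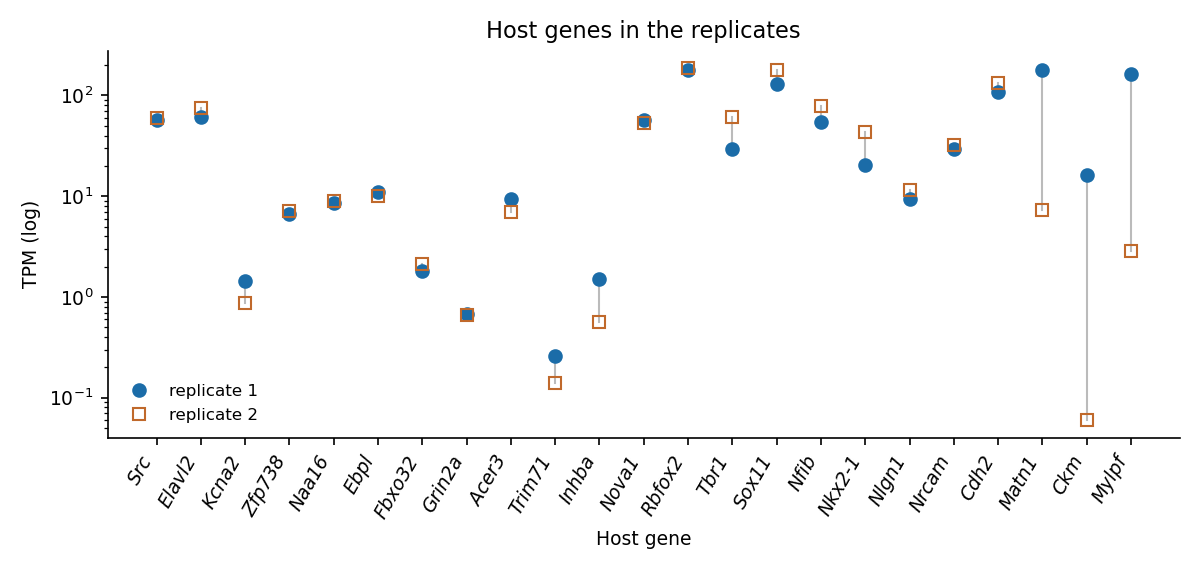
TPM on a log axis of named host genes in replicate 1 (filled circles) and replicate 2 (open squares), joined by a grey line; each point is 1 library. Most pairs nearly coincide, as in Src (56.85 and 59.73 TPM), whereas Matn1, Ckm and Mylpf are far lower in replicate 2 and Tbr1 and Nkx2-1 higher.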

How the data were processed

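Stranded paired-end RNA-seq of 2 tissue pools was used. The contig table carries no header; from its values, the authors deposited a summed base coverage (a signal), a reproducibility score and a contig position on mm9 for both libraries together. The deposited Ensembl 65 gene table (mm9) holds 2 RPKM fields, which could not be matched to the replicates and were averaged. The junction table holds read counts deposited by the authors, and assembled models name Cufflinks, per the file contents. For mm10, the authors deposited expected counts and TPM per replicate on GENCODE M4. Which aligner and quantifier were used is not given in the sources used here.

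Members were found with Python 3.11.15 and pandas 2.3.3. The host's end was the last 500 nt of its last exon, or the whole exon where shorter. Contigs on it were weighted by overlap, each with its mean over its whole length. Joining allowed gaps of 200 nt. Replicates were compared by TMM-normalised log2 ratios (edgeR 4.0.16, prior count 1, expected counts rounded to whole numbers, mean count of at least 200), with no test, since there is 1 group. Distances were carried to GENCODE M21 from shared last introns. The finding of members, hosts and distances and the TMM ratios were tested on simulated data. The joining of contigs and the shares of the host's end were not. Named hosts were the 10 longest members, the 10 of highest summed coverage, the hosts with most covered length, the 6 of highest RPKM and the leading hosts of each gene list; the other hosts were chosen after their values were seen, and some named by this rule are not reported here. The members and gene lists were chosen with earlier results of these data known. Alternatives are given in the closing section.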

Additional observations from a re-analysis of the deposited data

How the results depend on the processing

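The set depends on its limits. With a minimum of 500 nt there were 15871 members, with a distance of up to 5 kb 25226, up to 1 kb 6366, with a coverage of at least the median of all contigs 15150, and with a reproducibility score of up to 0.1, a setting chosen after seeing the data, 23262; the other 5 settings gave 31805 to 50490. The median length, coverage and distance became 370 nt, 2.91 and 3819 nt with a minimum of 100 nt, 813 nt, 4.16 and 3494 nt with 500 nt, 429 nt, 3.08 and 2133.5 nt up to 5 kb, and 445 nt, 3.27 and 481 nt up to 1 kb. They were 410 nt, 2.97 and 3560 nt with the whole contig within 10 kb, 661 nt, 5.25 and 3461 nt for the higher coverage, and 623 nt, 4.18 and 3519 nt for the score. Protein-coding hosts alone gave 427 nt and 3658 nt, contigs on no same-strand gene a distance of 3971 nt, and those near no other start 3828 nt. Pearson r between coverage and host level was 0.0524 with log2(RPKM + 1). Hosts at least 2-fold apart numbered 243, and 849 with no filter on low counts. Hosts of at least 1 TPM by the mean numbered 8081, and 7985 to 8120 when either replicate was left out. At least 5 junction reads left 124 linked members. Sharing an assembled transcript's exon left 2528 of 5854, and lengthened hosts numbered 1082 by the median last exon and 815 by an exon over the older end; the last setting and the shared exon were also chosen after seeing the data. No paired analysis was possible because the study has 1 group. The contig table has 1 value for both libraries, so the error of a member's coverage is unknown, and members below a coverage of 5 rest on few reads.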

Other observations

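Zinc finger genes recurred among the hosts of joined and well covered members, a class chosen after the values were seen and not tested. Symbols beginning with Zfp, Zkscan or Zscan and a number made up 29 of these 443 hosts (6.55%), 276 of all 11536 hosts (2.39%), 238 of the 11099 genes of at least 1 RPKM (2.14%) and 415 of all 37310 genes (1.11%). Of the 238, 166 (69.7%) were hosts and 33 (13.9%) had a member with a coverage of at least 10. Zfp758 had members of 7070 nt at 15.1 and 5099 nt at 24.7, the latter with 9 junction reads, and Zfp563 had 10383 nt at 21.8, which began 4539 nt beyond the older end, just past the 4502 nt that M21 adds. Their hosts had 2.48 and 2.43 TPM, and 10.7 and 12.9 TPM, in replicates 1 and 2. Zinc finger genes lie in clusters of similar sequence, where reads can be shared between copies.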
